A study of Mus musculus with 6 samples.

Results

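NF-κB is a family of dimeric transcription factors that drives the inflammatory response of the liver, and this report describes the transcripts of 10 genes of that system: the 5 subunits (Rela, Rel, Relb, Nfkb1 and Nfkb2), 4 IκB proteins (Nfkbia, Nfkbie, Nfkbiz and Bcl3) and Tnfaip3, which encodes A20. The genes were picked by name, with earlier results of these data known. Each of the 10 was found once among the 15454 rows of the count table and once among the 21948 rows of the FPKM table. All 10 passed the filter on low counts that left 12411 genes for testing. Their lowest count in any library was 42.

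The 6 livers came from male C57BL/6 mice of 8 to 10 weeks, and every animal had undergone warm ischemia of 75% of the liver followed by reperfusion. In the I/R group (n = 3) the animals received vehicle, and in the I/R+Rk2 group (n = 3) they received ginsenoside Rk2, a ginseng saponin, in that vehicle. Both were given 2 days before surgery and again when perfusion began. No sham-operated liver was analysed here, so what the injury itself did to these genes cannot be read from the data. The labels do not say whether livers of one group shared a litter or a day of surgery, and p-values measure the spread between the 3 livers of a group. The comparison of I/R+Rk2 with I/R addresses whether the drug alters the inflammatory transcriptome of the injured liver.

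In the canonical pathway, receptors for TNF, interleukin-1 and bacterial products activate the IκB kinase (IKK) complex, IκB proteins are degraded, and dimers of RelA or c-Rel with p50 enter the nucleus. In the non-canonical pathway, the kinase NIK, encoded by Map3k14, leads to processing of p100 (from Nfkb2) to p52, which pairs with RelB. Several of the system's own genes, among them Nfkbia, Nfkb2 and Tnfaip3, are known NF-κB targets, so that the response limits itself.

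The κB motif, a sequence of 10 bases to which the dimers bind, was searched on both strands of the RefSeq promoter windows (build GRCm38.p6, 250 bases before and 50 after each annotated start), and overlapping matches were counted as 1 site. Windows were at hand for 7 of the genes, Bcl3, Nfkb2, Nfkbia, Nfkbie, Rel, Rela and Tnfaip3. A match was present in at least 1 window of 6 of the 7, Rela being the exception, against 9.55% of all 27025 genes in the table. By window, 8 of 10 held a match, against 8.46% of 32851 windows. The motif matches are printed because they lie in the genes whose transcripts are compared below. Each line runs 5′ to 3′ on the strand of the gene, capitals mark the match, and the number before the sequence is the position of its first base relative to the start, with the start as base 1.

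Nfkbia, chr12:55492648-55492787, first base at -29: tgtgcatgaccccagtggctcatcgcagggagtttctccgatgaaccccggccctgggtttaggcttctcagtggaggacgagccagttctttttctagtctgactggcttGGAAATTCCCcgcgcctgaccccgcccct
Nfkbie, chr17:45555560-45555699, first base at -106: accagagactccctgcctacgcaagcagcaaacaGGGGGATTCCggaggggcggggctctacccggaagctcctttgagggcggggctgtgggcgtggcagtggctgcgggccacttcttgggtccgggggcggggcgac
Tnfaip3, chr10:19015516-19015545, first base at -125: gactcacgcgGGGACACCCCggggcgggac
Tnfaip3, chr10:19015403-19015432, first base at -12: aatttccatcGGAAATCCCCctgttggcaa
Nfkb2, chr19:46304688-46304717, first base at -39: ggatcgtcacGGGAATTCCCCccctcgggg
Nfkb2, chr19:46304716-46304745, first base at -11: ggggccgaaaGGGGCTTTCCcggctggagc
Rel, chr11:23771042-23771071, first base at -92: cgtaagcagcGGGAAATCCCCccccctccc
Bcl3, chr7:19822734-19822763, first base at 3: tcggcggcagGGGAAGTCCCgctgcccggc

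Nfkb2 has further annotated starts downstream, where 2 more sites were found. A match is a string of letters and was not tested for binding. Matches were present both in genes whose transcripts were lower in I/R+Rk2, such as Tnfaip3 and Nfkb2, and in genes that did not pass the test, Nfkbia and Rel.

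**Figure D1:**
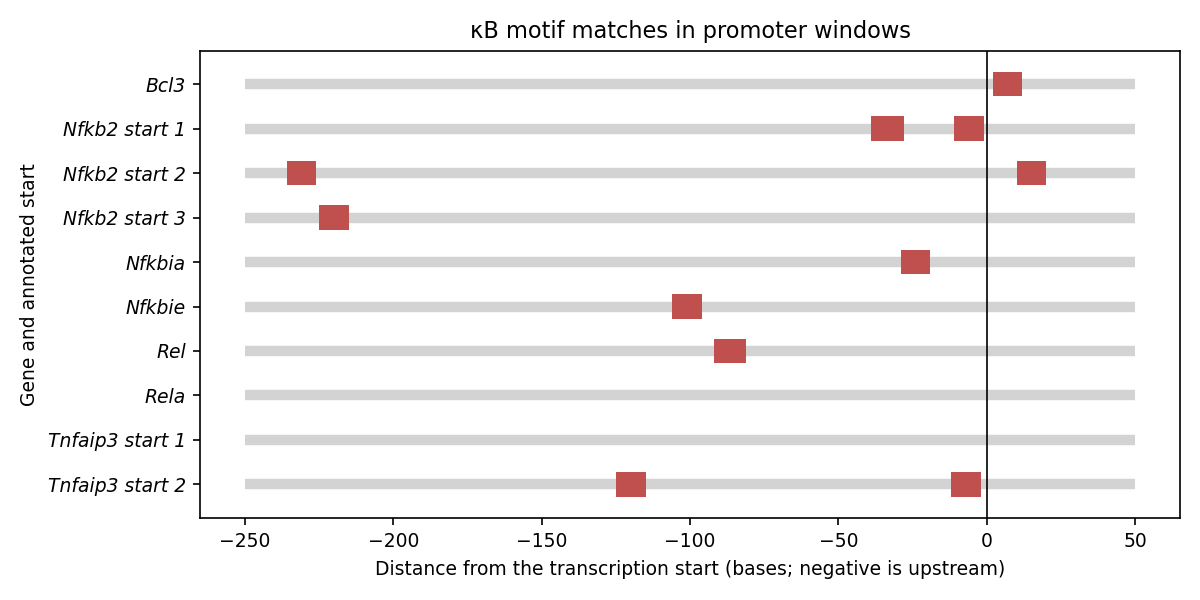
Position of κB motif matches in the promoter windows of 7 genes. The horizontal axis is the distance in bases from the annotated transcription start, grey bars are the windows searched, red boxes are matches, and each annotated start has its own line. The window of Rela and 1 of the 2 windows of Tnfaip3 hold no match.

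Of the 10 genes, 7 were lower in I/R+Rk2 than in I/R with an edgeR adjusted p below 0.05, 0 were higher, and 3 (Rel, Nfkbia and Nfkbiz) did not pass. Among all 12411 genes tested, 23.7% passed as lower and 20.3% as higher. A fall of more than 2-fold, the limit that the study set for these livers, was seen in 5 genes (Relb, Tnfaip3, Nfkb2, Bcl3 and Nfkb1), against 11.4% of all genes. The median log2 fold change of the 10 genes was -1.09, and that of all tested genes was -0.00759. In 7 genes the livers of the groups did not overlap in CPM (counts scaled to the TMM-adjusted library size), as was the case for 57.4% of all genes in either direction. With library size alone, without TMM factors, the median of all genes moved to -0.17, and the same 7 genes passed.

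**Figure D2:**
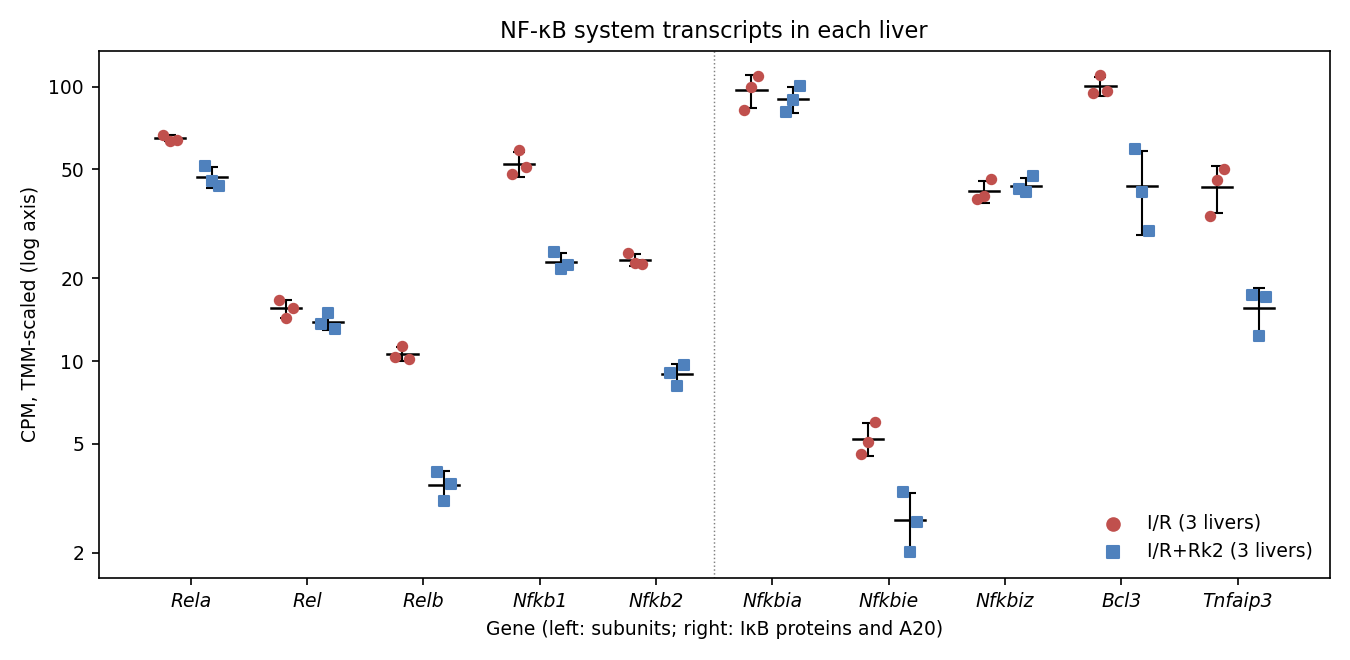
CPM of the 10 genes in each liver, on a log axis. Red circles are the 3 I/R livers, blue squares the 3 I/R+Rk2 livers, and black lines the mean with its SD. The groups overlap in Rel, Nfkbia and Nfkbiz and are apart in the other 7 genes.

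Among the subunits, those of the non-canonical pathway fell most by log2 fold change. Relb (chromosome 7, 19606217 to 19629438) encodes the subunit that pairs with p52. It measured 10.3, 11.4 and 10.2 CPM in I/R, and after Rk2 3.95, 3.08 and 3.56 CPM. Every I/R liver lay above every I/R+Rk2 liver, and the change on the log2 scale was -1.59 ± 0.144 (SE, edgeR adjusted p = 0.000498). Nfkb2 (chromosome 19, 46304320 to 46312385) encodes p100, which is both the precursor of p52 and an inhibitor of RelB. It measured 24.7, 22.8 and 22.6 CPM in I/R against 9.08, 8.08 and 9.70 CPM after Rk2. The groups were well apart, 23.4 ± 1.18 against 8.95 ± 0.817 CPM (SD, n = 3), and the change on the log2 scale was -1.39 ± 0.114 (SE, edgeR adjusted p = 0.000373). Nfkb2 shares 6.52% of its exonic bases with Psd and 11.6% with the non-coding AC114539.1, both on the opposite strand, and reads of these genes could be told apart only if strand was used in counting, which is not given in the sources used here.

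Nfkb1 (chromosome 3, 135584655 to 135691547) encodes p105, the precursor of p50. It measured 47.9, 58.5 and 50.8 CPM in I/R against 25.01, 21.7 and 22.4 CPM after Rk2. The groups did not overlap, and the change on the log2 scale was -1.19 ± 0.11 (SE, edgeR adjusted p = 0.000534).

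Rela (chromosome 19, 5637483 to 5648130) encodes p65, the main transactivating subunit of the canonical dimer. It measured 66.7, 63.6 and 64.1 CPM in I/R against 51.3, 45.4 and 43.5 CPM after Rk2. The I/R livers lay close together and above the I/R+Rk2 livers, but the fall was smaller than 2-fold, with a log2 change of -0.47 ± 0.09 (SE, edgeR adjusted p = 0.00603). Rel (chromosome 11, 23736847 to 23770970) encodes c-Rel, a subunit known from lymphoid and myeloid cells. Its values of 16.7, 14.4 and 15.6 CPM in I/R overlapped those of 13.7, 14.9 and 13.1 CPM in I/R+Rk2. The change on the log2 scale was -0.16 ± 0.113 (SE, edgeR adjusted p = 0.283), and it did not pass in any of 16 alternative fits. In FPKM the livers of Rel did not overlap, at 2.40, 1.85 and 1.98 in I/R against 1.67, 1.77 and 1.51 in I/R+Rk2. Yet limma on log2(FPKM + 1) did not call Rel (log2 fold change -0.21, limma adjusted p = 0.235). The median of all genes in that fit was -0.122. The share of all genes without overlap in FPKM was not computed.

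Levels of different genes were compared in FPKM, which is per length of transcript. In the I/R livers Rela held the largest share of the summed FPKM of the 5 subunits, at 42.4% ± 2.69 (SD, n = 3), followed by Nfkb1 at 31.5% ± 3.43, Nfkb2 at 13.2% ± 0.918, Relb at 9.16% ± 0.816 and Rel at 3.71% ± 0.421. In the I/R+Rk2 livers the share of Rela was 54.8% ± 2.12 and that of Rel 5.96% ± 0.843, while Relb held 3.50% ± 0.291 and Nfkb2 9.05% ± 1.102. The share of Rela was 44.2%, 39.3% and 43.8% in I/R, and 53.4%, 57.2% and 53.7% after Rk2. The groups did not overlap in the shares of Rela, Rel, Relb and Nfkb2, and each gave an exact permutation p of 0.1 (two-sided), the smallest that 3 against 3 livers allow. For Nfkb1 the share went from 31.5% to 26.7% ± 3.11 with overlapping livers (exact permutation p = 0.3). Relb, above Rel in share in each I/R liver, lay below Rel in each I/R+Rk2 liver.

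**Figure D3:**
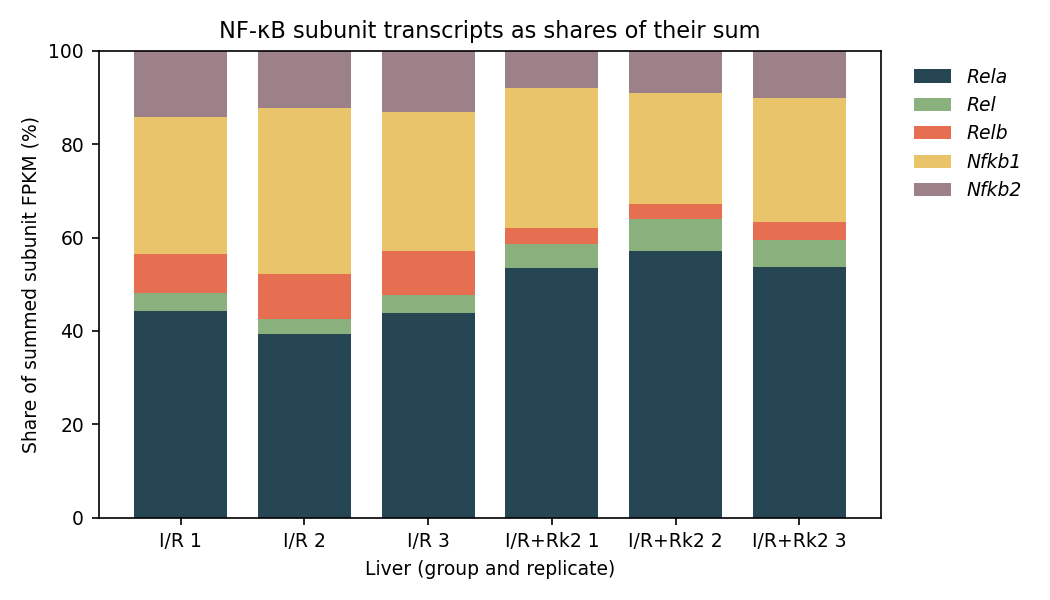
Share of each NF-κB subunit in the summed FPKM of the 5 subunits, as stacked bars for each of the 6 livers. The dark Rela segment spans 39.3% to 44.2% in the I/R livers and 53.4% to 57.2% in the I/R+Rk2 livers.

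For Relb the count and FPKM tables did not give the same size of fall. By mean CPM it was 3.01-fold lower in I/R+Rk2, while by mean FPKM it was 5.21-fold lower, at 4.88, 5.52 and 4.91 FPKM in I/R and 1.12, 0.839 and 0.981 FPKM in I/R+Rk2. The transcript length implied by counts and FPKM together was 2414, 2101 and 2095 bases in I/R, and 3447, 3479 and 3319 bases after Rk2, a ratio of 1.55. Across 7588 genes with at least 100 counts in every library the median of this ratio was 0.9997, with 5th and 95th percentiles of 0.875 and 1.18. Within a group the implied length also varied for Tnfaip3 (5796, 4201 and 5635 bases in I/R) and Bcl3 (1664, 1367 and 1742 in I/R). For Nfkb1 it was 2515, 3340 and 3008 bases after Rk2. The FPKM levels, shares and ratios of these 3 genes carry that variation. The CPM values carry the TMM factors, which do not enter the implied length. Rela, with a length ratio of 0.9993, was 1.39-fold lower by mean CPM and 1.55-fold lower by mean FPKM. The longest protein-coding transcript of Relb in GENCODE M21 has 2209 bases. With CPM per kilobase of the longest coding transcript, an alternative chosen after seeing the data, the share of Relb went from 9.70% ± 0.401 to 5.59% ± 0.446 and that of Rela from 48.2% ± 1.72 to 60.2% ± 1.36, again without overlap. On that scale the share of Nfkb1 did not overlap either, at 25.7% ± 2.31 in I/R and 19.6% ± 0.356 in I/R+Rk2 (exact permutation p = 0.1).

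Among the IκB and A20 genes, Tnfaip3 changed most by edgeR log2 fold change. In the limma fits on FPKM Bcl3 fell more, by -1.48 against -1.21 for Tnfaip3 with log2(FPKM + 1). Tnfaip3 (chromosome 10, 19000910 to 19015657) encodes A20, an ubiquitin-editing enzyme that shuts off signalling from TNF and Toll-like receptors. It measured 33.8, 45.7 and 49.9 CPM in I/R against 17.4, 12.4 and 17.1 CPM after Rk2. The lowest I/R liver was well above the highest I/R+Rk2 liver, and the change on the log2 scale was -1.47 ± 0.191 (SE, edgeR adjusted p = 0.0015).

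Bcl3 (chromosome 7, 19808462 to 19822770) encodes a nuclear IκB protein that binds dimers of p50 or p52. It measured 94.7, 110 and 96.7 CPM in I/R against 59.1, 41.5 and 29.8 CPM after Rk2. All I/R+Rk2 livers were lower but spread widely, and the change on the log2 scale was -1.21 ± 0.23 (SE, edgeR adjusted p = 0.00591). With I/R+Rk2 replicate 3 left out, this was -0.994 (edgeR adjusted p = 0.00867), just short of 2-fold. Bcl3 shares 6.51% of its exonic bases with the antisense gene Gm16175.

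Nfkbie (chromosome 17, 45555703 to 45563169) encodes IκBε, which holds NF-κB dimers in the cytoplasm. It was the least counted of the 10 genes, at 88, 130 and 150 counts in I/R and 79, 68 and 42 counts in I/R+Rk2. In CPM the values were 4.59, 5.07 and 5.98 against 3.32, 2.01 and 2.58, without overlap, and the change on the log2 scale was -0.99 ± 0.23 (SE, edgeR adjusted p = 0.0125). It was the only one of the 7 lower genes to lose its call in an alternative, with an edgeR adjusted p of 0.0507 without I/R replicate 3, against 0.00426 to 0.0507 over its 16 alternatives.

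Nfkbia (chromosome 12, 55489410 to 55492647) encodes IκBα, the classical inhibitor that is degraded on activation and quickly made anew. Its transcript measured 82.4, 99.5 and 109 CPM in I/R against 80.7, 89.1 and 100.5 CPM after Rk2. The 2 groups overlapped almost fully, and the change on the log2 scale was -0.11 ± 0.131 (SE, edgeR adjusted p = 0.532). In FPKM the livers did not overlap, at 58.6, 61.8 and 67.3 in I/R against 47.8, 53.3 and 57.9 in I/R+Rk2, yet limma on log2(FPKM + 1) did not call the gene (log2 fold change -0.24, limma adjusted p = 0.117). The median of all genes in that fit was -0.122. The adjusted p of Nfkbia in 16 alternatives lay between 0.0887, with library size alone, and 0.927.

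Nfkbiz (chromosome 16, 55811375 to 55838899) encodes IκBζ, a nuclear cofactor needed for a group of late NF-κB targets that includes Il6 and Lcn2. It measured 38.8, 39.9 and 46.04 CPM in I/R against 42.3, 41.3 and 47.0 CPM after Rk2. The livers overlapped, and the change on the log2 scale was 0.07 ± 0.102 (SE, edgeR adjusted p = 0.629). Its sign turned in the FPKM fits and also with library size alone, and it passed in none of 16 alternatives.

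In the I/R livers Bcl3 and Nfkbia were the most abundant of the 10 by FPKM, at 67.8 ± 13.3 and 62.6 ± 4.42 (SD, n = 3), and their livers overlapped. Rela followed at 23.7 ± 2.18 FPKM, below every liver of Nfkbia. Next came Nfkb1 at 17.6 ± 2.53 and Nfkbiz at 11.4 ± 0.776 FPKM, and all I/R livers of Nfkb1 lay above those of Nfkbiz. Tnfaip3 at 8.91 ± 2.23 FPKM overlapped both Nfkbiz above it and Nfkb2 below it, the latter at 7.39 ± 0.876. Relb at 5.11 ± 0.363 FPKM was below Nfkb2 in every liver, and Nfkbie at 2.12 ± 0.196 and Rel at 2.07 ± 0.288 FPKM overlapped at the bottom. In I/R+Rk2 the first place went to Nfkbia at 53.0 ± 5.05 FPKM, and Bcl3 followed at 24.6 ± 10.03.

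Whether a gene moved more than Rela was tested on the ratio of both FPKM values within a liver, which no scaling of libraries affects. The log2 ratio of Relb to Rela was -2.43, -2.02 and -2.19 in I/R against -3.95, -4.14 and -3.81 in I/R+Rk2, a difference of -1.76 (-1.12 in CPM). The difference was -0.920 for Nfkb2, -0.891 for Bcl3, -0.812 for Tnfaip3, -0.607 for Nfkb1 and -0.538 for Nfkbie. The order depended on the unit, since in CPM Tnfaip3 (-0.987) came ahead of Nfkb2 (-0.911) and Bcl3 (-0.787). In FPKM the ratio of Nfkbiz to Rela was 0.544 higher and that of Rel 0.312 higher in I/R+Rk2. In these 8 of 9 comparisons the livers did not overlap, and each gave an exact permutation p of 0.1 (two-sided), which is the smallest possible. Of 12117 other tested genes with FPKM above 0 in every liver, 61.8% also did not overlap in their ratio to Rela. Since Rela was itself lower in I/R+Rk2, a gene that did not move has a higher ratio there, and Rel and Nfkbiz did not pass the edgeR test. The ratio of Nfkbia to Rela was 0.393 higher with overlapping livers (exact permutation p = 0.2).

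Ratios to Nfkbia, added after seeing the data, set the IκB and A20 genes side by side. The log2 ratio of Tnfaip3 to Nfkbia was -3.14, -2.48 and -2.91 in I/R, and -3.78, -4.28 and -4.08 after Rk2, a difference of -1.205. For Bcl3 the difference was -1.284 and for Nfkbie -0.931, and for all 3 genes the livers did not overlap (exact permutation p = 0.1), as was the case for 42.1% of 12117 tested genes in their ratio to Nfkbia. The order of Bcl3 and Tnfaip3 depended on the unit, since in CPM the differences were -1.159 and -1.36. Nfkbiz differed from Nfkbia by 0.150 with overlapping livers (exact permutation p = 0.3).

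Other genes of the pathway were read from lists of 2 to 20 genes, also chosen with earlier results of these data known. Both other IκB genes were lower in I/R+Rk2. Nfkbid, which encodes the nuclear protein IκBNS, measured 4.11 ± 0.656 CPM in I/R against 0.568 ± 0.390 after Rk2, and the change on the log2 scale was -2.86 ± 0.449 (SE, edgeR adjusted p = 0.00295). Nfkbib, which encodes IκBβ, measured 31.7 ± 1.29 CPM in I/R against 21.04 ± 1.88 after Rk2 (log2 fold change -0.59, edgeR adjusted p = 0.00363).

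Of 11 kinase genes, 3 were lower, 0 higher and 8 did not pass, with a median log2 fold change of -0.36. The share lower was close to the 23.7% of all genes. Map3k14, the gene of NIK, was lower, with 11.8 ± 1.999 CPM in I/R against 2.66 ± 0.266 after Rk2, and the change on the log2 scale was -2.15 ± 0.176 (SE, edgeR adjusted p = 0.000373). The IKK-related kinases Ikbke (-0.87, edgeR adjusted p = 0.000772) and Tbk1 (-0.68, edgeR adjusted p = 0.00198) fell by less. The core of the IKK complex gave no call: Chuk (IKKα) measured 80.6 ± 4.93 against 85.1 ± 15.04 CPM (edgeR adjusted p = 0.667), and Ikbkg (NEMO) 58.3 ± 11.9 against 36.6 ± 12.7 CPM (edgeR adjusted p = 0.0873). Ikbkb (IKKβ), named here after its values were seen, measured 35.9 ± 1.14 against 33.7 ± 1.97 CPM (edgeR adjusted p = 0.401).

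Of 18 receptor and adaptor genes, 9 were lower, 1 higher and 8 did not pass, with a median of -0.50, against 23.7% lower and 20.3% higher among all genes. Il1r1, the signalling receptor of interleukin-1, was lower, with 356.9 ± 26.0 CPM in I/R against 69.1 ± 28.9 after Rk2 (log2 fold change -2.37, edgeR adjusted p = 0.00112). Tlr2 was lower, with 36.7 ± 3.90 CPM in I/R against 7.24 ± 2.33 after Rk2 (-2.34, edgeR adjusted p = 0.000574). The TNF receptors Tnfrsf1a (-1.04, edgeR adjusted p = 0.000547) and Tnfrsf1b (-0.84, edgeR adjusted p = 0.00102) also fell. The 1 higher gene was Tradd, an adaptor of TNF receptor 1, at 5.83 ± 0.426 against 9.51 ± 0.540 CPM (0.71, edgeR adjusted p = 0.00428), and it is named here after its values were seen.

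Of 11 genes for A20 partners and other ubiquitin regulators, 3 were lower, 1 higher and 7 did not pass, with a median of -0.16, and here too the share lower was close to the 23.7% of all genes. Tnip2 (log2 fold change -1.06, edgeR adjusted p = 0.00758) and Tnip1 (-0.50, edgeR adjusted p = 0.0404) encode A20-binding proteins, and Otud7b (-0.63, edgeR adjusted p = 0.00696) a related deubiquitinase. Rbck1, which encodes a subunit of the linear ubiquitin ligase, rose from 25.3 ± 2.04 to 38.2 ± 1.38 CPM (0.60, edgeR adjusted p = 0.00287). Tax1bp1 (74.4 ± 7.93 against 67.8 ± 4.90 CPM) and Rnf11 (141.6 ± 7.16 against 127.2 ± 10.2 CPM), both parts of the A20 complex, gave edgeR adjusted p-values of 0.341 and 0.203.

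Of 20 NF-κB target genes, 15 were lower, 0 higher and 5 did not pass, with a median of -1.14, and 13 of the 15 were more than 2-fold lower. Among all genes tested, 23.7% passed as lower and 11.4% were more than 2-fold lower. Lcn2, the iron-binding protein lipocalin 2, measured 633.1 ± 166.9 against 48.9 ± 11.9 CPM (log2 fold change -3.70, edgeR adjusted p = 0.00024). Vcam1, an endothelial adhesion molecule, measured 39.6 ± 3.27 against 14.3 ± 0.569 CPM (-1.47, edgeR adjusted p = 0.00024). The smallest p-values were otherwise those of Ccl2 (-2.73) and Il1b (-3.13). Sod2, the mitochondrial superoxide dismutase and a textbook target, measured 211.0 ± 23.2 against 184.0 ± 11.9 CPM and did not pass (-0.20, edgeR adjusted p = 0.169).

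**Figure D4:**
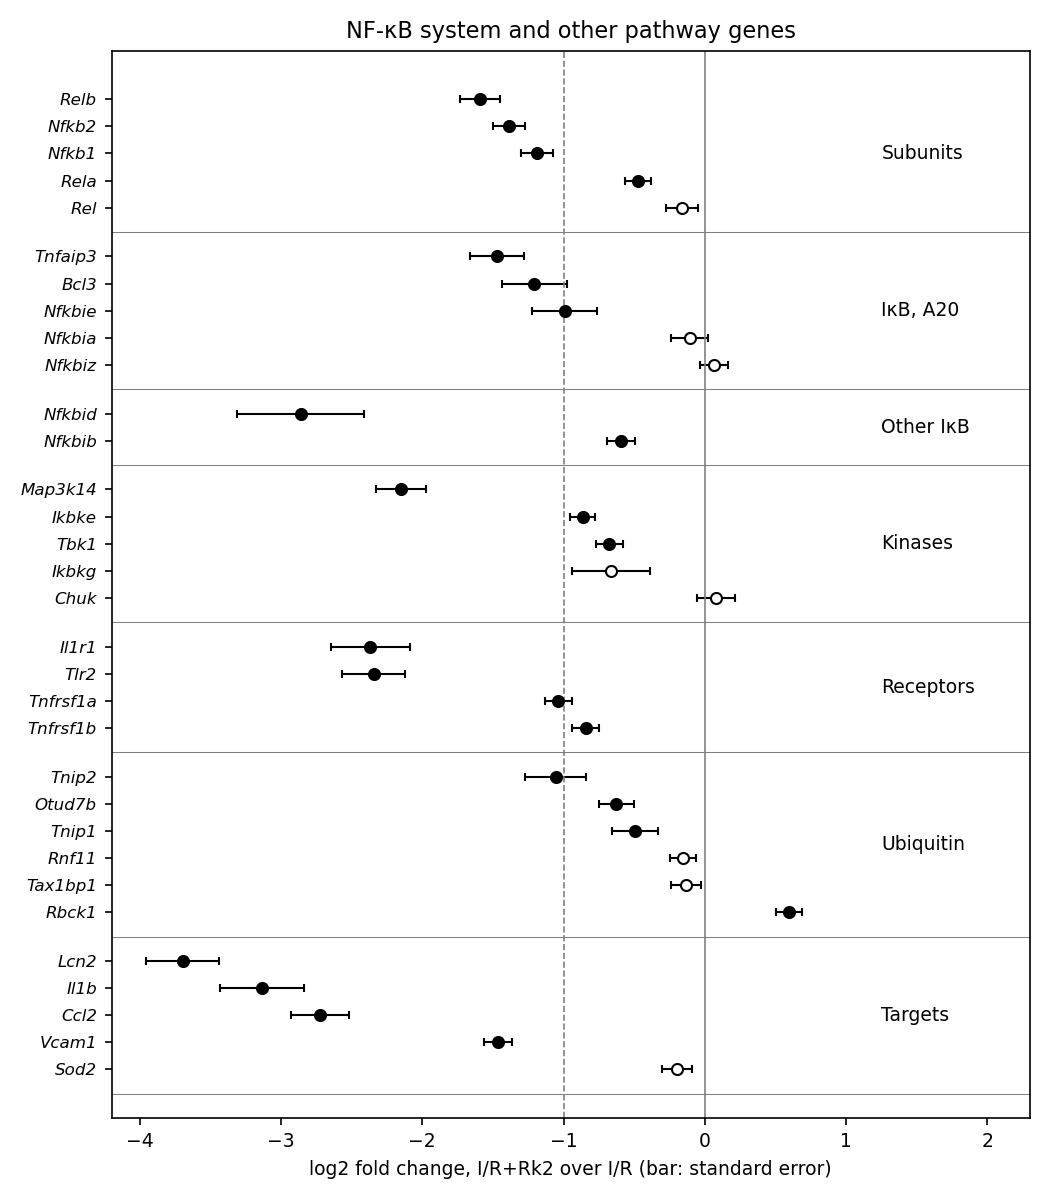
Log2 fold change of I/R+Rk2 over I/R with its standard error for the 10 genes (subunits, IκB and A20) and other named pathway genes. Filled circles have an edgeR adjusted p below 0.05, open circles do not, and the dashed line marks a 2-fold fall. Rel, Nfkbia and Nfkbiz lie between -0.16 and 0.07, whereas Relb, Tnfaip3 and Nfkb2 lie between -1.59 and -1.39.

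These are bulk livers, in which fewer cells of a type and less RNA per cell cannot be told apart, and marker transcripts of blood-borne cells moved with the 7 lower genes. The summed CPM of 5 pan-leukocyte markers (Ptprc, Laptm5, Coro1a, Cd53 and Lcp1, all 5 lower) ran from 222.5 to 284.9 in I/R and from 73.4 to 131 in I/R+Rk2, 2.71-fold lower by mean. The 5 monocyte markers, all 5 lower, ran from 107.7 to 136.3 CPM in I/R and from 3.43 to 5.88 CPM in I/R+Rk2. Neutrophil markers, 4 of 5 lower, ran from 406.7 to 523.7 CPM against 78.1 to 189.5 CPM. Kupffer cell markers, 1 of 5 lower, ran from 43.6 to 70.6 CPM against 32.5 to 42.4 CPM. Hepatocyte markers, 4 of 5 higher, ran from 60030 to 70490 CPM against 93820 to 114500 CPM, so the labelled tissue was borne out by its defining transcripts in every library.

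Marker sums of resident non-parenchymal cells and of bile duct cells differed in how far they moved. Endothelial markers, 2 of 5 higher and 2 lower, overlapped between the groups at 136.4 to 142.1 against 112.9 to 147.4 CPM. Stellate cell markers, 1 of 5 lower, ran from 130.0 to 171.8 against 104.2 to 115.8 CPM, and cholangiocyte markers, 2 of 5 lower, from 164.1 to 229.9 against 83.8 to 117 CPM, 1.92-fold lower by mean and without overlap. Most of the cholangiocyte sum was Spp1, at a mean of 161.7 CPM in I/R against 70.6 in I/R+Rk2, and the other lower marker was Epcam. Krt19 (5.54 against 5.91 CPM), Sox9 (20.5 against 20.9 CPM) and Krt7 did not pass. T and NK cell markers and B cell markers summed to at most 0.976 and 1.13 CPM in any liver, and 0 of either list could be tested. Within I/R+Rk2, replicate 1 had the highest leukocyte, monocyte and neutrophil sums and also the highest Rela, Relb, Nfkb1, Nfkbie, Bcl3 and Tnfaip3 CPM. For Tnfaip3 replicate 3 was nearly level, at 17.1 against 17.4 CPM. Nfkb2 was highest in replicate 3, as were Nfkbia and Nfkbiz, and Rel was highest in replicate 2. Within I/R the order differed between lists and genes. Replicate 2 had the lowest leukocyte (222.5 CPM) and neutrophil (406.7 CPM) sums and the highest Relb, Nfkb1 and Bcl3 CPM. The monocyte sums of I/R replicates 1 to 3 were 107.7, 125.7 and 136.3 CPM, and Nfkbie and Tnfaip3 CPM rose in that same order. So did the CPM of Nfkbia and Nfkbiz, which did not pass the test between the groups. Rela and Nfkb2 CPM were highest in I/R replicate 1, as was that of Rel, which did not pass. The part of the cell mixture in the falls of the 7 genes was not tested.

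Genes with the most similar course over the 6 livers were ranked by the root mean square difference of centred log2(CPM + 1) among 9153 genes with a mean of at least 100 counts. Closest to Nfkb2 were Myo9b (0.0611), Raph1 (0.0792) and S100a6 (0.0803). Closest to Tnfaip3 were Plac8 (0.0829), Creb3l1 (0.12) and Zeb1 (0.129). Closest to Nfkbia, which varied little, were mt-Nd6 (0.02) and Ltbp4 (0.0551).

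The 6 libraries held 16809613 to 35618074 counts each, and TMM factors were 1.01 to 1.14 in I/R and 0.914 to 0.975 in I/R+Rk2. Libraries of one group differed by more than sampling noise in each of the 6 pairs (chi-square per degree of freedom of 31.4 to 74.8). This cannot tell separate animals from separate libraries of one sample. Each library was treated as 1 replicate.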

How the data were processed

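Total RNA from 6 livers, 250 ng each, was made into libraries with an MGI kit. Per the labels and methods, the authors checked reads with FastQC 0.11.5, aligned them to mm10 with HISAT2 2.2.1 and estimated expression with StringTie 1.3.3. The annotation, strand setting and counting step are not given in the sources used here. They deposited whole-number counts per gene and FPKM (fragments scaled to transcript length and sequencing depth), and column names gave the sample. Spreadsheet dates replace the gene name in 21 rows of the count table, and none is named here.

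Counts were tested with edgeR 4.0.16 (R 4.3.3): filterByExpr, TMM scaling and the quasi-likelihood F test across all 12411 genes kept, without covariates, with Benjamini-Hochberg adjustment over all of them. Fold changes give I/R+Rk2 relative to I/R, and the standard error is the absolute log2 fold change over the square root of F. Alternatives were other scalings and filters, DESeq2 1.42.0, limma 3.58.1 on log2(FPKM + 1) or log2(FPKM + 0.1) for genes whose mean reached 1 FPKM or without a filter, a replicate block, and leaving out each library. Shares and ratios were compared by exact permutation over livers (scipy 1.17.1). The scripts were tested on simulated data. Gene models are GENCODE M21 on GRCm38, the assembly also called mm10.

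The 10 genes and all lists were chosen with earlier results of these data known. From each pathway list over 6 genes, up to 4 genes by p and 2 by mean CPM are named, shorter lists in full, and of the marker lists only sums and defining members. Single cholangiocyte markers are the exception and are named after their values were seen. The 3 nearest genes in course are given for Nfkb2 and Tnfaip3, and 2 for Nfkbia, since 1 is not reported here. The precision of a value is limited by depth and by 3 livers per group.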

Additional observations from a re-analysis of the deposited data

How the results depend on the processing

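The 7 lower genes were Bcl3, Nfkb1, Nfkb2, Nfkbie, Rela, Relb and Tnfaip3 in 15 of 16 alternatives, and the exception was Nfkbie without I/R replicate 3 (-0.881). Nfkbiz changed sign with library size alone (-0.0939), with limma on log2(FPKM + 1) with and without a filter (-0.0837 in both) and on log2(FPKM + 0.1) (-0.0904). In these fits, in the same order, the median of all genes was -0.17, -0.122, -0.0493 and -0.145, against -0.00759 in the reported fit. The cause of the sign change was not tested. Relb fell by 2.28 on the log2 scale with log2(FPKM + 0.1). Genes past 2-fold among the 10 numbered 4 (without I/R+Rk2 replicate 3) to 6. The log2 ratio of Rel to Nfkbia, whose livers overlapped, ran from -0.1652 to 0.07396 when 1 library was left out, being above 0 in the absence of I/R replicate 1, or of I/R+Rk2 replicate 3 (0.04878).

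Over all genes, those called higher numbered 2516 in the reported fit, 1320 with library size alone, 1172, 1148 and 1124 by limma (in the order log2(FPKM + 1), log2(FPKM + 0.1) and no filter), and 1640 (without I/R+Rk2 replicate 2) to 2401 when 1 library was left out, with 1645 without I/R replicate 3. Past the 2-fold limit, 393 were higher, or 246 with library size alone, and 93, 154 and 82 in FPKM, and 1420 were lower, or 808 with log2(FPKM + 1) and 839 without its filter. Lower genes made up 53.9% of all calls, 72.5% with library size alone, 69.5% to 72.8% in FPKM and 48.3% with upper-quartile scaling, under which more genes were called higher (2884) than lower (2691). Whether a replicate number pairs livers of the 2 groups is not given in the labels. For livers of the same number the correlations of deviations from the group mean were -0.0313, 0.0477 and -0.0243. I/R replicate 1 correlated best with I/R+Rk2 replicate 3. With deviations taken from means of only 3 livers, these values cannot decide whether livers were paired. In a fit with the replicate block, 7 of the 10 genes were lower, 6 past 2-fold, and 2595 genes in all were lower. Exact tests of 3 against 3 livers cannot go below 0.1, so shares and ratios could not pass 0.05.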
